A study of Danio rerio with 10 samples.

Results

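The genes described here are those whose level fell stepwise with the number of working ebf3a copies in zebrafish at 2 days post-fertilization (dpf). They were chosen by their measured values at that age. The level of a gene was its count scaled to the library's total of reads counted on genes (CPM, counts per 1000000). A gene was kept when both homozygous (−/−) libraries lay below both heterozygous (+/−) libraries, and both +/− libraries below both wild-type (WT, +/+) libraries. The −/− mean also had to be at most 0.85 of the +/− mean, the +/− mean at most 0.85 of the WT mean, and the WT mean at least 2 CPM. A stretch of 105 neighbouring gene IDs was left out, and leaving it out removed no gene. Of the 36351 gene IDs counted, 15838 met the WT minimum outside that stretch, and 103 of these, or 0.650%, met the whole rule. These 103 genes are called members, and each is numbered by the size of its fall, rank 1 having the smallest ratio of −/− to WT mean.

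Ebf3 belongs to the EBF (Collier/Olf/EBF) family of transcription factors, DNA-binding proteins that act in the differentiation of neurons and several other cell types. In humans, loss of a single EBF3 copy is a known cause of a neurodevelopmental disorder, so the heterozygous state is of interest beside the complete loss. A gene whose transcript level follows the copy number of a regulator is expected to be intermediate in carriers of a single copy, which is the pattern that the rule asks for.

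The fish carried a mutation of ebf3a made with CRISPR/Cas9, and RNA was sequenced in bulk from pools of animals of the same genotype. At 2 dpf each pool held 15 to 20 embryos, the tissue was given as upper body with eyes, and every genotype had 2 libraries. At 5 dpf each pool held 10 to 12 animals, the tissue was given as head with eyes, and there were 2 −/− and 2 WT libraries but no +/− library. One label for RNA extraction gives the later age as 6 dpf, while titles and age labels give 5 dpf. Reads counted on genes came to between 30.1 and 47.8 M per library. At 2 dpf the WT libraries were the deepest, at 43.3 and 47.8 M, against 32.6 to 34.7 M for +/− and 30.1 to 31.4 M for −/−, so genotype goes with depth at this age. At 2 dpf, replicates varied with a biological coefficient of variation of 12.6% for −/−, 10.9% for +/− and 6.17% for WT, and at 5 dpf it was 23.6% for −/− and 21.9% for WT. A replicate is a pool, and p-values measure only the spread between pools. The files and the gene tables used here do not pair the gene IDs with names, so the level of ebf3a, the cell types of the tissue and the functions of the members were not analysed here. In bulk tissue, fewer cells of a type and less RNA per cell cannot be told apart.

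At 2 dpf the members fell by a median of 43.6% in −/− and of 21.9% in +/− relative to the WT mean. These sizes follow in part from the rule and are given as a description. The −/− mean was at a median of 0.564 of the WT mean, with quartiles of 0.468 and 0.619 and a range from 0.0940 to 0.694. In 32 of the 103 members it was at most 0.5 of the WT mean. The +/− mean was at a median of 0.781 of WT, from 0.454 to 0.849. The median level over the members was 2.56 and 2.42 CPM in the −/− libraries, 3.26 and 3.50 CPM in the +/− libraries and 4.44 and 4.69 CPM for WT. The replicate libraries of a genotype were close to each other in this median. The separation of the 3 genotypes follows from the rule. Genes whose replicates spread across genotypes fail the rule, so the closeness of replicates follows from it in part and is a description only. The plot of the members over the 6 libraries shows that single members spread far more widely around this course.

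**Figure D1:**
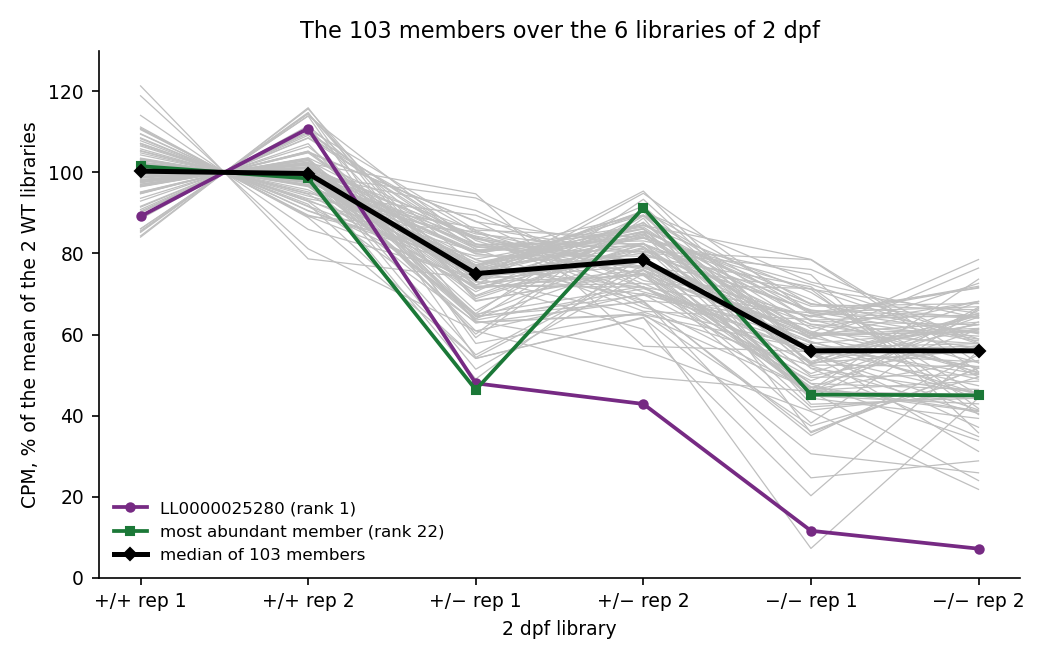
Level of each of the 103 members at 2 dpf as a percentage of its mean over the 2 WT libraries (vertical axis), in the 6 libraries (horizontal axis). Grey lines are single members, black is the median over members, purple is LL0000025280 and green is the most abundant member, which lay at the −/− level in +/− replicate 1 and close to WT in +/− replicate 2.

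The members were mostly genes of low abundance. Their WT level at 2 dpf had a median of 4.46 CPM, against 17.2 CPM over the 15838 genes that met the WT minimum. It was under 5 CPM in 55 members, or 53.4%, where 19.1% of the 15838 genes were under this level. It was between 5 and 20 CPM in 41 members and at least 20 CPM in 7. The fewest reads behind a member's value in any 2 dpf library were 5, and 9 members had a library with under 30 reads. The 52 members with the lower WT levels had a median ratio of −/− to WT of 0.529, and the other 51 had 0.590.

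The thresholds of the rule passed through a continuous range of values. In all, 446 genes had the order of libraries and the WT minimum. The ratio of −/− to +/− nearest to its limit was 0.846 inside and 0.858 outside, and 47 genes failed on this ratio alone. For +/− to WT the nearest ratios were 0.849 inside and 0.8504 outside, with 105 genes failing on this alone. The nearest WT means were 2.14 CPM inside and 1.95 CPM outside, with 137 genes failing on this alone.

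The rule places both +/− libraries of every member between WT and −/−, so an intermediate level is given as a description only. The members' +/− mean lay on average near the middle between WT and −/−. With WT set at 0% and −/− at 100%, it lay at a median of 53.6%, with a range from 31.3% to 82.3%. It was under 50% of the way in 37 members and over 50% in 66, and between 40% and 60% in 57. The 2 +/− libraries differed in this respect. Replicate 1 was at a median of 58.0% of the way and replicate 2 at 48.3%, and replicate 1 was below replicate 2 in 67 of the 103 members. The same order of these 2 libraries was found in 61.1% of the 15838 genes. By comparison, replicate 1 was below replicate 2 in 47 members for −/− and in 49 for WT.

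In 11 members the 2 +/− libraries lay over 50 points apart on this scale, so that their intermediate mean stood for unlike values. Whether these gaps were wider than the sampling of reads would give was not tested. The widest gap, 81.7 points, was that of the most abundant member, rank 22. This gene was at 2509 and 2434 CPM in the WT libraries, 1146 and 2255 CPM in the +/− libraries and 1117 and 1112 CPM in the −/− libraries. Its +/− replicate 1 was therefore within a few percent of −/−, and its +/− replicate 2 was close to WT. Because of this gene, the summed level of all members at 2 dpf moved mostly with 1 gene. Without it, the sum over the other members was 595.7 and 585.0 CPM in −/−, 747.1 and 822.0 CPM in +/− and 1007 and 1001 CPM in WT.

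The number of members was set against the numbers found when the same rule was applied to every assignment of the 6 libraries to 3 ordered pairs. There are 90 such assignments, and the true labels gave the most genes, 103. The other 89 gave from 2 to 79 genes, with a median of 19. No p-value is drawn from this rank, because the order of the genotypes was chosen with results of these libraries known. As a further limit, every order of the pairs kept together by genotype gave more genes than the median of the mixed assignments, 19. The cause of this was not tested. The reverse order, WT below +/− below −/−, gave 58 genes, and −/− below WT below +/− gave 57. With +/− lowest, 45 genes had WT in the middle and 23 had −/− in the middle, and 26 genes had the order WT, −/−, +/−. Among the 84 assignments that mixed genotypes within a pair, the numbers ranged from 2 to 79 with a median of 19.

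The largest number after the true one, 79, came from an assignment that kept the WT pair on top and exchanged 1 −/− with 1 +/− library, with −/− replicate 2 and +/− replicate 1 as the lowest pair. The 4 mixed assignments with the WT pair on top gave from 27 to 79 genes. When the stretch of IDs left out of the rule was kept in, the reverse order gave 78 genes, the true order 103 and no other assignment more than 79. Depth also goes with genotype at 2 dpf. When every library was thinned once to the depth of the shallowest, the true order gave 98 genes, of which 82 were among the 103.

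**Figure D2:**
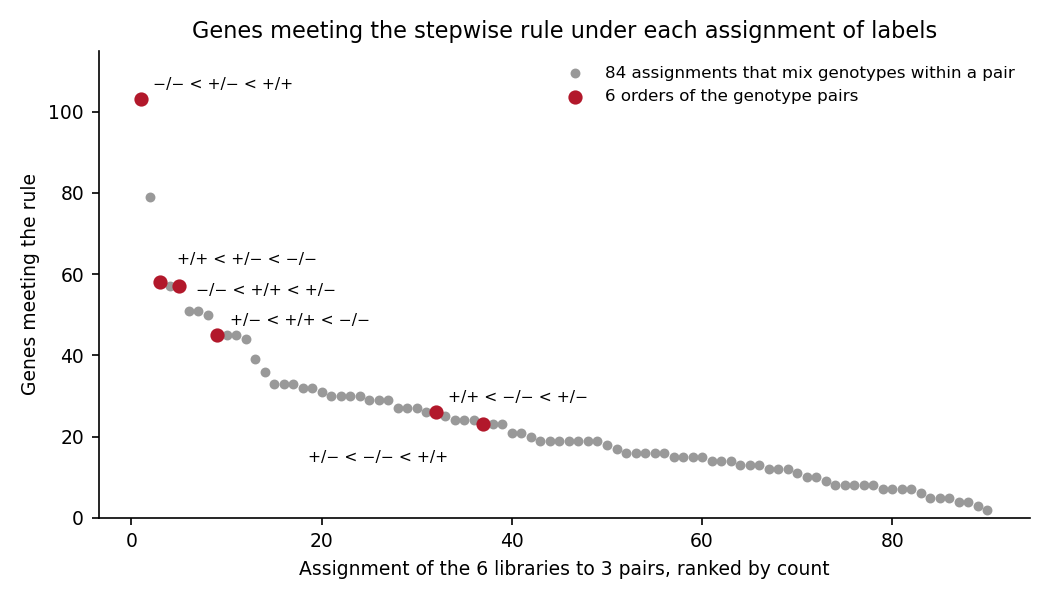
Number of genes meeting the stepwise rule (vertical axis) under each of the 90 assignments of the 6 libraries of 2 dpf to a lowest, a middle and a highest pair, ranked by that number (horizontal axis). Red points keep the genotypes together and are labelled with their order, grey points mix genotypes within a pair, and the true order stands highest with 103 genes.

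The tests at 2 dpf used the same contrasts as the rule, so their results describe the members and nothing is read from them. All 103 members passed the filter on low counts and were tested with edgeR's quasi-likelihood test over all genes. Between −/− and WT, 45 members were lower at an adjusted p under 0.05, where 0.746% of all genes tested were called lower. Between +/− and WT, 0 members were called, where 0.125% of all genes were called lower. In that comparison 40 members were lower at an unadjusted p under 0.05, where 5.81% of all genes were. DESeq2's Wald test called 3 of the 36 members to which it gave an adjusted p, where it called 0.847% of all such genes lower. Between −/− and +/−, 3 members were called lower, those of ranks 1, 16 and 74, where 0.228% of all genes were called lower. No member was called in all 3 comparisons, 58 were called in none, and none was called higher in any. Of the 45 calls between −/− and WT, 35 fell among the 51 members with the higher WT levels and 10 among the other 52. The numbers called changed when a single library was left out, for the members and for all genes. Such a fit holds only 1 pool of that genotype, and the cause of the change was not tested. Between −/− and WT, where 167 of all genes were called lower, 11 members and 32 genes in all were called lower without WT replicate 1, 13 and 35 without WT replicate 2, and 25 and 108 without −/− replicate 1. Between +/− and WT, where 28 of all genes were called lower, 4 members were called with −/− replicate 1 or −/− replicate 2 left out, among 82 and 86 genes in all, and 2 members among 88 genes without +/− replicate 2. Between −/− and +/−, where 51 of all genes were called lower, 5 members were called among 82 genes without +/− replicate 1 and 5 among 278 without −/− replicate 2.

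The 2 genes that fell most were LL0000025280 and LL0000031917. LL0000025280, rank 1, was at 4.34 and 5.398 CPM in WT, 2.34 and 2.09 CPM in +/− and 0.565 and 0.350 CPM in −/− at 2 dpf. Its −/− mean was 0.0940 of WT, the smallest ratio of the group. At 5 dpf the same gene was at 5.52 and 2.83 CPM in WT and at 4.45 and 3.43 CPM in −/−. The −/− libraries then lay between the 2 WT libraries, and the log2 fold change of −/− over WT was −0.10 with a standard error of 0.39, within the spread between replicates.

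LL0000031917, rank 2, was at 2.47 and 2.11 CPM in WT, 1.24 and 1.47 CPM in +/− and 0.166 and 1.02 CPM in −/− at 2 dpf. Its lowest value rests on 5 reads, and the 2 −/− libraries differed more from each other than the +/− libraries did. At 5 dpf it was at 2.16 and 3.38 CPM in WT and 1.85 and 2.05 CPM in −/−. Both −/− libraries were below both WT libraries at this age too, with a log2 fold change of −0.52 and a standard error of 0.34, which did not pass the test (adjusted p = 1.00, edgeR's quasi-likelihood test).

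**Figure D3:**
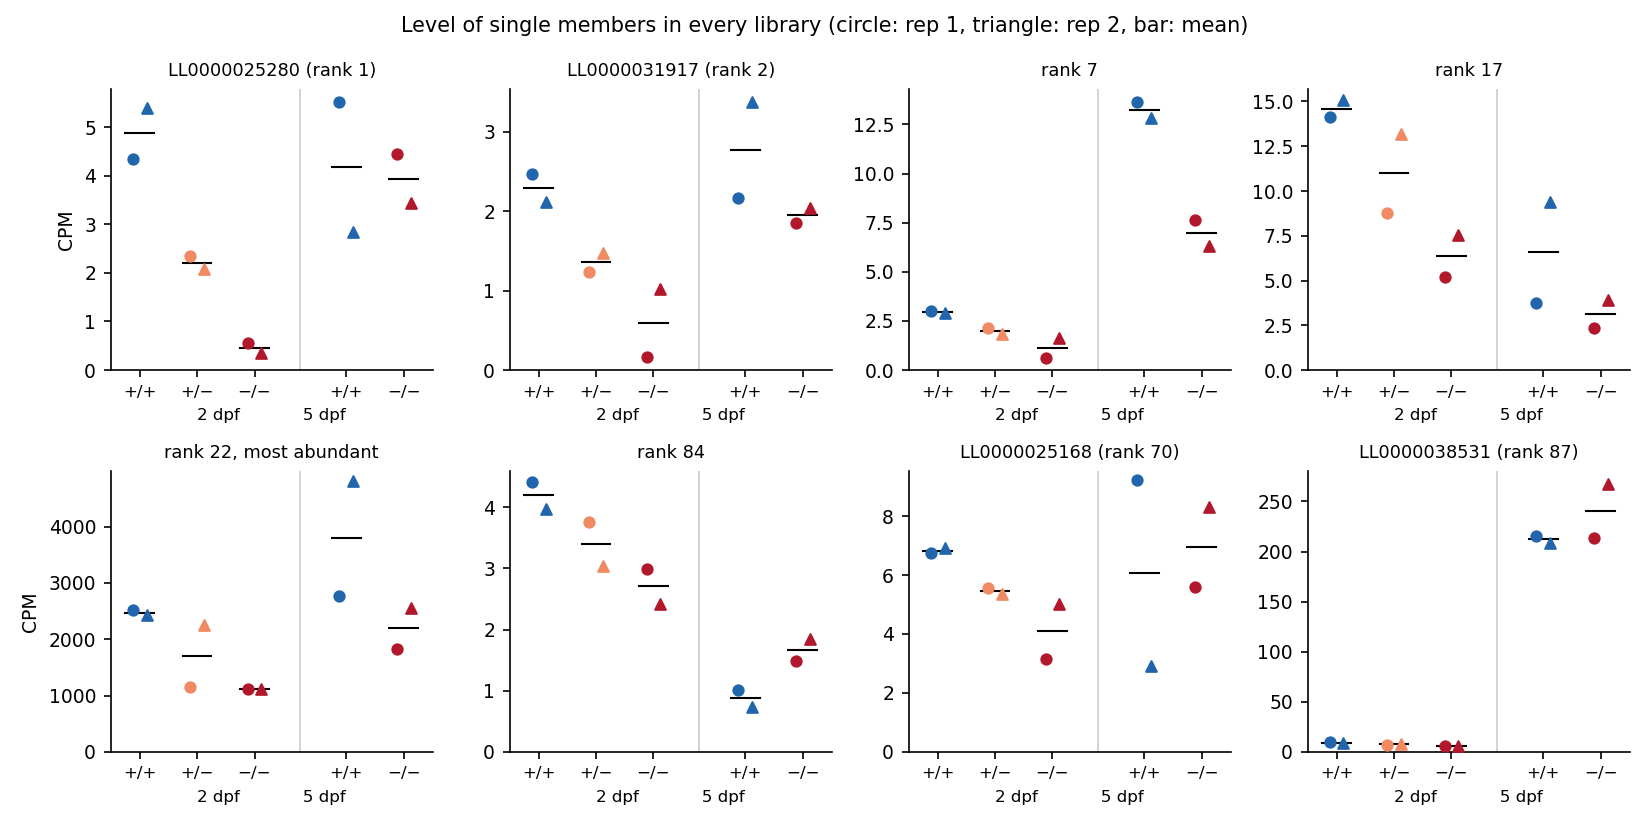
Level in CPM (vertical axes, each starting at 0) of 8 members in every library, by genotype and age (horizontal axes). Circles are replicate 1, triangles replicate 2 and bars the mean of both. All members are lowest in −/− at 2 dpf by the rule. At 5 dpf LL0000025280 had overlapping genotypes, ranks 7 and 22 had both −/− libraries below both WT libraries, and rank 84 had them above.

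The 5 dpf libraries were not used by the rule and so allow the members to be measured again. At this age 102 members passed the filter on low counts. No member was called (0 of 102), and 0% of the 23654 genes tested were called lower, with a smallest adjusted p of 1.00 among the members in edgeR's quasi-likelihood test. DESeq2's Wald test also called 0 members, where it called 0.00846% of all genes lower. An unadjusted p under 0.05 with a lower level in −/− was reached by 6 members, or 5.88%, where 0.854% of all genes tested and 0.456% of the genes with a WT level of at least 2 CPM at 2 dpf reached it. None reached it with a higher level. The number of such members changed with the library left out, as did the share of all genes tested. It was 2 without WT replicate 2 (0.462% of all genes), 3 without −/− replicate 1 (0.383%), 11 without WT replicate 1 (1.34%) and 14 without −/− replicate 2 (4.31%).

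The direction at 5 dpf was mostly that of 2 dpf. The log2 fold change of −/− over WT was below 0 in 84 of the 102 members, or 82.4%, where it was below 0 in 52.0% of all genes tested and in 49.0% of the 15798 genes tested that had the 2 dpf WT minimum. Its median over the members was −0.20, with quartiles of −0.37 and −0.03 and a range from −1.23 to 0.91. The median was −0.01 over all genes tested and 0.00 over the genes with the 2 dpf WT minimum. The plot of these fold changes shows the members shifted to lower values as a body, with most of them inside the range of the other genes. The standard error of a single member had a median of 0.31, so most single fold changes were smaller than their error. The shift rested on which libraries were compared. Without WT replicate 2, 47 members were lower in −/− with a median log2 fold change of 0.03, while 45.5% of all genes were lower with a median of 0.03. Without −/− replicate 1, 56 members were lower with a median of −0.04, against 53.2% of all genes and a median of −0.01. Without −/− replicate 2, 80 members were lower with a median of −0.45, against 51.1% and −0.01, and without WT replicate 1, 83 with a median of −0.38, against 49.2% and 0.01.

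**Figure D4:**
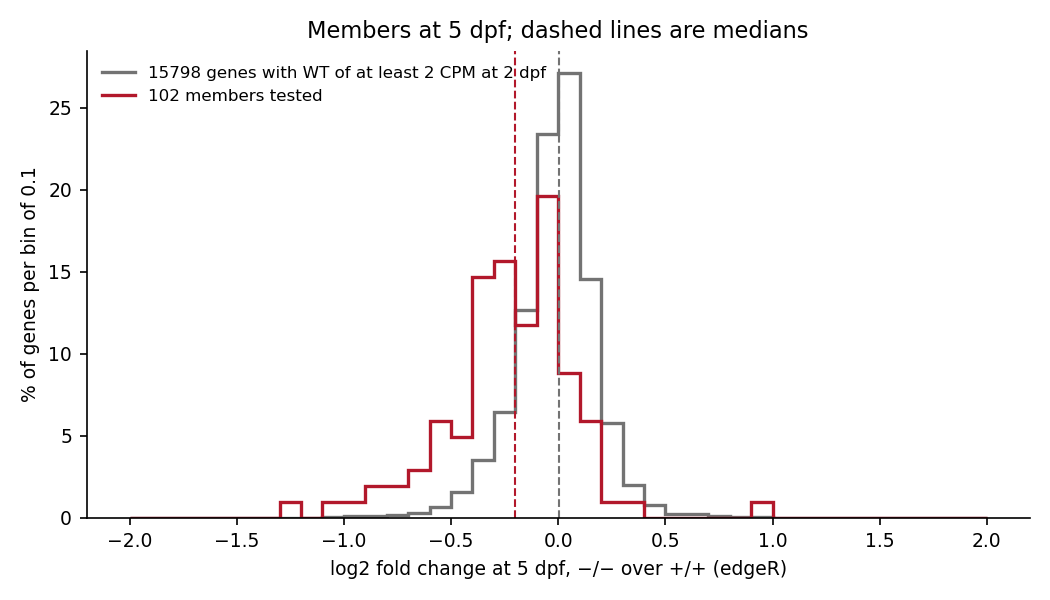
Log2 fold change of −/− over +/+ at 5 dpf from edgeR (horizontal axis, bins of 0.1) and the percentage of genes in each bin (vertical axis), for the 102 members tested (red) and for the 15798 genes tested with a WT level of at least 2 CPM at 2 dpf (grey). Dashed lines are the medians, −0.20 for the members and 0.00 for the other group, which includes the members.

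The shift was not shared by all pairs of 5 dpf libraries. Compared library by library, −/− replicate 1 was below WT replicate 1 in 75 members (73.5%, against 48.4% of the genes with the 2 dpf WT minimum). It was below WT replicate 2 in 81 members (79.4% against 45.1%). The −/− replicate 2 library was below WT replicate 2 in 78 members (76.5% against 46.4%), but below WT replicate 1 in only 34 (33.3% against 48.2%). Of the 4 pairs of libraries, 3 thus had most members lower in −/− and 1 had most members higher.

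The members also moved with the replicate number at 5 dpf. In 71 of the 102 members, or 69.6%, replicate 1 was below replicate 2 in both genotypes, where this held for 34.2% of the genes with the 2 dpf WT minimum. The median level over the members was 6.88 CPM in −/− replicate 1 and 9.10 CPM in −/− replicate 2, and 7.90 CPM in WT replicate 1 and 10.6 CPM in WT replicate 2. The difference between replicates was therefore larger than that between genotypes of the same replicate number, and its cause was not tested. With the replicate number as a block in the fit, 84 members were lower in −/−, with a median log2 fold change of −0.204. The main fit gave 84 and −0.203. Within replicate 1 the median log2 ratio of −/− to WT was −0.16 and within replicate 2 it was −0.22, both with 0.5 CPM added to each level. The same medians over the genes with the 2 dpf WT minimum were 0.01 and 0.02. In 55 members, or 53.9%, −/− was below WT within both replicate numbers, against 23.3% of those genes. The labels do not say that pools of the same number were raised or processed together.

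A gap between all libraries of the 2 genotypes was less common. Both −/− libraries were below both WT libraries at 5 dpf in 15 members, or 14.7%, against 7.65% of the genes with the 2 dpf WT minimum. Both were above in 1 member, or 0.98%, against 12.2% of those genes. Over the 15 members the ratio of the −/− to the WT mean had a median of 0.664, from 0.526 to 0.923. All 6 members with an unadjusted p under 0.05 were among the 15, namely ranks 4, 7, 22, 43, 71 and 79. Of the 50 tested members with the stronger falls 44 were lower with a median log2 fold change of −0.22, and of the 52 with the weaker falls 40 were lower with a median of −0.14. By abundance, 46 of 51 members with the higher 2 dpf WT levels and 38 of 51 with the lower levels were lower at 5 dpf.

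The member of rank 7 had the smallest unadjusted p of the group at 5 dpf. At 2 dpf it was at 3.003 and 2.91 CPM in WT, 2.16 and 1.81 CPM in +/− and 0.599 and 1.66 CPM in −/−. At 5 dpf it was at 13.7 and 12.8 CPM in WT and at 7.62 and 6.30 CPM in −/−. The rule requires the genotypes not to overlap at 2 dpf. At 5 dpf they did not overlap either, and neither pair of replicates spread by as much as the gap between genotypes. The log2 fold change at 5 dpf was −0.94 with a standard error of 0.22 (unadjusted p = 0.00473, adjusted p = 1.00, edgeR's quasi-likelihood test), so it did not pass the adjustment over all genes.

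Rank 4 rose strongly with age and kept a gap between genotypes. It was at 3.14 and 2.51 CPM in WT and 0.865 and 0.732 CPM in −/− at 2 dpf, and at 23.0 and 33.4 CPM in WT and 17.8 and 17.8 CPM in −/− at 5 dpf. Its +/− libraries were at 1.53 and 1.81 CPM. The −/− libraries were below both WT libraries at 2 dpf, as the rule requires, and also at 5 dpf. They were nearly equal to each other at 5 dpf, with a 5 dpf log2 fold change of −0.68 and a standard error of 0.21. Rank 79 had the same arrangement at higher levels. It was at 6.95 and 6.51 CPM in WT, 5.19 and 6.02 CPM in +/− and 4.26 and 4.20 CPM in −/− at 2 dpf, and at 82.4 and 102.7 CPM in WT and 67.3 and 67.5 CPM in −/− at 5 dpf. Its 5 dpf log2 fold change was −0.47 with a standard error of 0.17. Neither rank 4 nor rank 79 passed the adjustment over all genes at 5 dpf.

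The most abundant member, rank 22, was at 2770 and 4805 CPM in WT and at 1828 and 2552 CPM in −/− at 5 dpf. Both −/− libraries were below both WT libraries, although −/− replicate 2 came close to WT replicate 1. The log2 fold change was −0.80 with a standard error of 0.31, and rank 22 did not pass the adjustment over all genes either. Its nearest fellow member by gene ID, 9 IDs away, was rank 74, another abundant gene. Rank 74 was at 104.5 and 104.0 CPM in WT, 83.4 and 90.2 CPM in +/− and 62.6 and 64.2 CPM in −/− at 2 dpf. Its replicates were almost equal in WT and in −/− at that age. Its +/− libraries lay at 51.0% and 34.3% of the way from WT to −/−, closer together than those of rank 22. At 5 dpf it was at 537.5 and 747.5 CPM in WT and 440.7 and 617.0 CPM in −/−, so that the genotypes overlapped.

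The lowest 5 dpf log2 fold changes belonged to a pair of members with consecutive gene IDs, ranks 14 and 17. Rank 17 was at 14.1 and 15.1 CPM in WT, 8.77 and 13.2 CPM in +/− and 5.22 and 7.54 CPM in −/− at 2 dpf, and at 3.75 and 9.39 CPM in WT and 2.33 and 3.90 CPM in −/− at 5 dpf. Rank 14 was at 2.59 and 3.16 CPM in WT, 1.70 and 2.55 CPM in +/− and 1.23 and 1.27 CPM in −/− at 2 dpf, and at 0.677 and 2.05 CPM in WT and 0.409 and 0.774 CPM in −/− at 5 dpf. In both genes WT replicate 2 was highest at 5 dpf and −/− replicate 2 lay just above WT replicate 1, so the genotypes overlapped. Their log2 fold changes were −1.23 for rank 14 and −1.09 for rank 17, with standard errors of 0.64 and 0.48. Whether reads were shared between these neighbouring IDs was not tested.

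The 5 dpf log2 fold change was below 0 in 84 of the 102 members tested, and above 0 in the others. The sign alone does not show a gap between genotypes, since both −/− libraries were below both WT libraries in only 15 members. Among members with a 5 dpf WT mean of at least 2 CPM, the highest 5 dpf log2 fold changes were those of LL0000025168 and LL0000038531. LL0000025168, rank 70, was at 6.75 and 6.90 CPM in WT, 5.57 and 5.34 CPM in +/− and 3.16 and 5.03 CPM in −/− at 2 dpf, and at 9.22 and 2.92 CPM in WT and 5.58 and 8.32 CPM in −/− at 5 dpf. Its WT libraries at 5 dpf enclosed both −/− libraries, and the log2 fold change of 0.17 was smaller than its standard error of 0.54. LL0000038531, rank 87, was at 9.96 and 8.43 CPM in WT, 7.04 and 8.05 CPM in +/− and 5.65 and 6.27 CPM in −/− at 2 dpf. At 5 dpf it was at 216.0 and 208.7 CPM in WT and 213.4 and 267.6 CPM in −/−. The genotypes overlapped again, with a log2 fold change of 0.16 and a standard error of 0.18.

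Only rank 84 had both −/− libraries above both WT libraries at 5 dpf. It was at 4.41 and 3.98 CPM in WT, 3.75 and 3.04 CPM in +/− and 2.99 and 2.42 CPM in −/− at 2 dpf, and at 1.02 and 0.741 CPM in WT and 1.49 and 1.85 CPM in −/− at 5 dpf. Its level had fallen with age in both genotypes. The 5 dpf log2 fold change was 0.91 with a standard error of 0.39 (unadjusted p = 0.0552, adjusted p = 1.00, edgeR's quasi-likelihood test), and it did not pass the test.

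The members were more often higher at 5 dpf than at 2 dpf, in both genotypes. These counts are a description, because the 2 dpf values chose the members and because age goes with the dissection and the pool size. Both WT libraries of 5 dpf were above both of 2 dpf in 60 members, or 58.3%, and below both in 22, or 21.4%. Of the 15838 genes with the WT minimum, 40.7% were above and 45.4% below. In −/− the members were above in 76, or 73.8%, and below in 9, or 8.74%, against 40.5% and 43.8%. The low −/− values at 2 dpf were part of the rule, so the larger number in −/− cannot be read as a stronger rise. With 0.5 CPM added to each mean, the WT level at 5 dpf was at a median of 1.49 times that at 2 dpf, against 0.968 over the 15838 genes.

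The 5 dpf −/− libraries were also set against the 2 dpf WT libraries. Both 5 dpf −/− libraries lay above both 2 dpf WT libraries in 47 of the 103 members and below both in 28. The shares of the 15838 genes given above, 40.7% in WT and 40.5% in −/−, are for a rise within a genotype. They are not a background for this comparison between genotypes. The shares of all genes are not given for the counts of this paragraph, so these counts only describe the members and nothing is read from them. In 9 members the 5 dpf WT mean was at or below the 2 dpf −/− mean. The WT mean rose at least 5-fold with age in 8 members, ranks 4, 9, 33, 46, 74, 78, 79 and 87. The largest rise was that of rank 46, from 3.21 and 3.56 CPM to 206.8 and 181.9 CPM, or 57.4-fold. In −/− this gene was at 1.496 and 2.26 CPM at 2 dpf and at 184.5 and 230.5 CPM at 5 dpf, when the genotypes overlapped. The WT mean fell at least 4-fold in 2 members, ranks 28 and 84. Rank 28 was the member left untested at 5 dpf, with 4.94 and 3.98 CPM in WT, 3.81 and 3.01 CPM in +/− and 2.06 and 2.16 CPM in −/− at 2 dpf. At 5 dpf it had no read in WT or in −/− replicate 2 and 0.0240 CPM, a single read, in −/− replicate 1, and was not detectable at this depth otherwise.

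**Figure D5:**
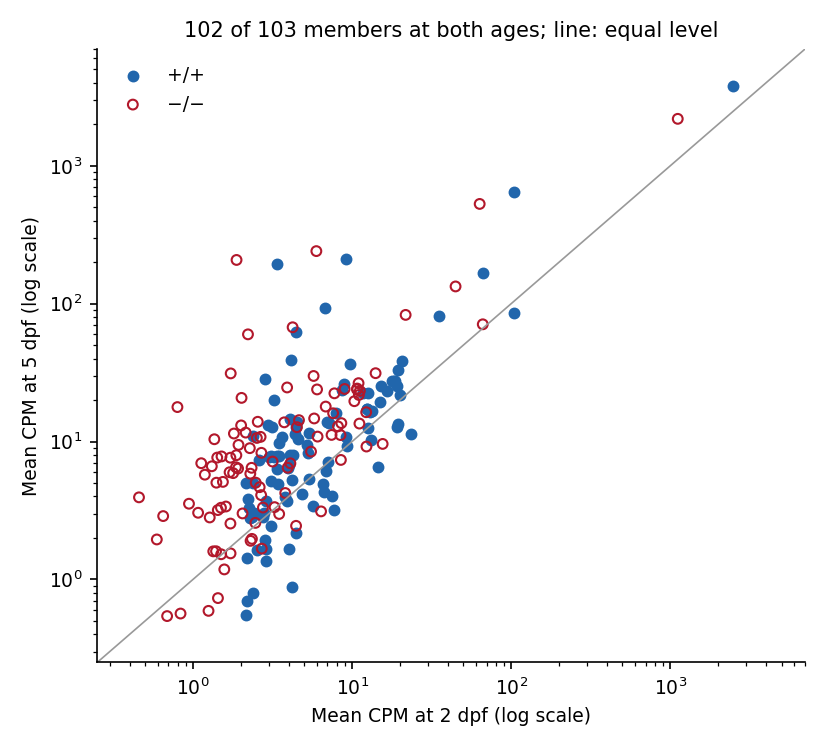
Mean level at 2 dpf (horizontal axis) and at 5 dpf (vertical axis) of 102 members in CPM, both on log scales, for +/+ (filled blue) and −/− (open red). Points above the grey line were higher at 5 dpf. The member of rank 28, with no read in WT at 5 dpf, is not drawn.

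Most members had no other member within 10 gene IDs. There were 16 members, or 15.5%, within 10 IDs of another member, in 8 pairs of which 2 were consecutive, and no run was longer than 2. The share to be found in an equally large set of other genes was not computed, so this count is only a description. Only 1 member, or 0.971%, lay within 1000 IDs of the stretch that was left out, against 1.90% of the 15838 genes. Whether ID order follows the genome is not given in the sources used here, so no position is drawn from it.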

How the data were processed

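Bulk RNA-seq was made from pooled zebrafish of known ebf3a genotype. Reads were mapped by the authors to GRCz11 (STAR, Lawson Lab annotation), who deposited an unnormalized count of reads for each gene ID. The strand setting of the counting is not given in the sources used here, so genes that overlap on opposite strands are uncertain. Libraries were grouped by the genotype and age in their labels. The deposited counts were scaled to CPM by the library sum for the rule. The members and the lists were chosen with earlier results of these data known.

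After filterByExpr and TMM scaling, differences were tested over all genes by the quasi-likelihood test of edgeR (4.0.16, under R 4.3.3), with Benjamini-Hochberg adjustment. The 3 genotypes of 2 dpf shared a fit, and 5 dpf was fitted alone. The standard error given with a log2 fold change was worked back from the test. It was the size of the fold change divided by the square root of the test's F statistic. The rule was run on simulated levels with almost no noise. The fits were run on simulated counts with log2 fold changes of 1 at 2 dpf and 2 at 5 dpf. These runs checked the working of the steps and do not show how well changes of the members' size are found. With no names for the IDs (0 of 36351 matched the gene tables), the IDs printed are the 2 members that fell most at 2 dpf and the 2 with the highest 5 dpf log2 fold change among those with at least 2 CPM in 5 dpf WT. Other members are given by rank, and those of ranks 4, 7, 14, 16, 17, 22, 28, 46, 74, 79 and 84 were singled out after their values were seen. The alternatives were other scalings, minimum levels, step sizes and count filters, thinning to equal depth, DESeq2 1.42.0, a replicate block, other sets of libraries in the fit, and leaving out each library. Cell type marker lists could not be used without gene names. With 30.1 M reads, 1 read is worth 0.0333 CPM in the shallowest library.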

Additional observations from a re-analysis of the deposited data

Results flagged for a closer look

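The member of rank 84 was lower in −/− than in WT at 2 dpf, as the rule requires, with a ratio of means of 0.645. It was higher in −/− at 5 dpf, where the ratio was 1.90 and the genotypes did not overlap. The 5 dpf difference did not pass the test, and the WT libraries were at only 1.02 and 0.741 CPM. Both −/− libraries lay above both WT libraries in 0.98% of the members tested, against 12.2% of the genes with the 2 dpf WT minimum. The difference between the ages was not tested.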

How the results depend on the processing

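Of the alternatives for the number of members, a WT minimum of 5 CPM gave 48, steps of 0.80 gave 54 and steps of 0.90 gave 195. With a library left out, the other library of its genotype stood for it and the rule had fewer conditions to meet, which gave from 146 to 202 genes. Not all members were among them. Of the 103 members, 67 and 71 were kept without +/− replicate 1 and replicate 2. It was 89 and 83 without −/− replicate 1 and replicate 2, and 85 and 92 without WT replicate 1 and replicate 2. A WT minimum of 1 CPM gave 138, TMM library sizes 107 and DESeq2's size factors 100, of which 98 and 95 were among the 103. Of the 45 members called between −/− and WT at 2 dpf, the number became 73 with no filter on low counts and from 11 to 53 with a library left out. Against 0 between +/− and WT, 10 counts in every library gave 1, DESeq2 gave 3, no filter 8, a fit of only the 2 groups 4, and leaving out a library from 0 to 4. Against 3 between −/− and +/−, DESeq2 gave 5, no filter 11, a fit of only the 2 groups 1, and leaving out a library from 2 to 5. The number of all genes called lower moved as well. Between −/− and WT it was 167 in the main fit and 500 with no filter. The 28 between +/− and WT became 40 with 10 counts in every library, 105 with DESeq2, 244 unfiltered and 76 in the 2-group fit. The 51 between −/− and +/− became 109 with DESeq2, 323 unfiltered and 18 in the 2-group fit. The causes of these moves were not tested. At 5 dpf no alternative called a member. The members lower in −/− numbered from 47 to 83 with a library left out, and 77 of 103 when all 10 libraries shared a fit. Their median log2 fold change then ran from −0.45 to 0.034, and it was above 0 only without WT replicate 2. The 6 members with an unadjusted p under 0.05 became 2 to 14 with a library left out. LL0000025280 ranged from −0.49 to 0.48 and LL0000025168 from −0.42 to 1.25 with a library left out, so both changed sign, and the other 2 named genes did not.

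The labels share replicate numbers, but nothing in them says that a number marks a shared clutch or day, and with 2 pairs the numbers were not taken to pair the pools. Deviations of same-numbered libraries from their group means correlated by −0.01 to −0.02 at 2 dpf and by 0.57 at 5 dpf. With a replicate block at 2 dpf, 37 members among 135 genes in all were called lower between −/− and WT. It was 0 among 10 between +/− and WT, and 2 among 39 between −/− and +/−. At 5 dpf the replicate block called 0 members, where it called 10 of all genes lower. At that age 84 members were lower, 29 of these at an unadjusted p under 0.05, where 1198 of all genes tested, or 5.06%, were lower at that p.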
